A study of Mus musculus with 68 samples.

Results

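The Hox genes are described here as they were read in mouse embryonic stem cells (ESCs). The members are 38 genes of the Hoxa, Hoxb, Hoxc and Hoxd clusters, taken by symbol from the 55335 gene rows of each of 3 count tables. In mm10 the 10 Hoxa genes lie on the minus strand of chromosome 6 (52162417 to 52260880), and the 10 Hoxb genes lie on the plus strand of chromosome 11 (96194316 to 96368256). The 9 Hoxc genes lie on the plus strand of chromosome 15 (102921103 to 103036852) and the 9 Hoxd genes on the plus strand of chromosome 2 (74668310 to 74765142).

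All lines derive from E14JU, a male ESC line of 129/Ola background, and were grown untreated on gelatin in serum with LIF, a cytokine that holds ESCs undifferentiated. In MCM2-2A cells, point mutations disrupt the histone-binding domain of MCM2, a subunit of the replicative helicase that passes parental histones to the lagging strand. The rescue experiment holds 4 cultures each of WT#1, MCM2-2A#2 and MCM2-R#2, in which the mutation of the same clone was reverted to the wild-type sequence. The GEO labels give the MCM2-R#2 libraries a wild-type genotype, and the clone name comes from the study's own sample list. The clone experiment holds 39 libraries of 7 WT and 8 MCM2-2A clones, made in January, March and August batches, and the POLE4 experiment holds 3 libraries each of WT#1 and of 3 POLE4-KO clones, which lack a subunit of the leading-strand polymerase. Each line is 1 clone, and WT#1 is the only control of the rescue and POLE4 experiments, so in these 2 experiments a difference between clones and an effect of the genotype cannot be told apart.

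Hox genes encode homeodomain transcription factors that give cells their position along the body axis. Within a cluster the genes stand in the order in which they are used along that axis: low paralogue numbers are switched on early and in anterior regions, high numbers late and in posterior regions. In ESCs the clusters are textbook targets of Polycomb repression, with the repressive and the activating promoter mark side by side, and retinoic acid, Wnt signalling and Cdx factors open them upon differentiation.

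Depth was 21882680 to 33779889 gene counts per library in the rescue experiment, 17500744 to 25659666 in the POLE4 experiment and 26723456 to 64068260 in the clone experiment. All Hox genes together held 263 to 896 of these counts in a rescue culture, 60 to 295 in a POLE4 library and 75 to 977 in a clone library. The ESC identity was checked with 12 pluripotency markers, and none was at 0 in any line: Pou5f1 stood between 604 and 922 CPM (counts scaled to library size with TMM factors) over all units. The MCM2-2A mutation alters few bases, so counts cannot check it. Mcm2 read 416.7 ± 19.9 CPM (SD, n = 4) in WT#1, 225 ± 7.42 in MCM2-2A#2 and 213 ± 5.03 in MCM2-R#2.

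The Hox genes were read at a low level in every line, and the highest among them were posterior. Levels between genes are compared as CPM per kilobase of exon, averaged over 63 units (12 rescue cultures, 12 POLE4 libraries, 39 clone libraries). Hoxc13 led with 0.703 ± 0.340 (SD), followed by Hoxd13 with 0.564 ± 0.181 and Hoxb9 with 0.505 ± 0.288. The means of these 3 genes lie within 1 SD of each other, and their order differed between experiments. In the 17 clone units Hoxd13 (0.568) stood above Hoxc13 (0.521) and Hoxb9 (0.442), while in the rescue experiment Hoxc13 (1.15) stood above Hoxb9 (0.719) and Hoxd13 (0.458). Hoxd9 (0.238), Hoxc12 (0.228), Hoxd8 (0.143), Hoxa7 (0.139), Hoxa13 (0.111) and Hoxa10 (0.108) completed the 9 genes at or above 0.1. Hoxa7 was the highest of its cluster in this mean, with an SD of 0.0704, as Hoxb9, Hoxc13 and Hoxd13 were of theirs. In the POLE4 libraries Hoxa13 (0.0997) stood above Hoxa7 (0.0812). In the clone units Hoxa7 (0.125) stood close to Hoxa10 (0.118) and Hoxa13 (0.112).

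By position, 7 of the 16 posterior genes (paralogue groups 9 to 13) reached 0.1 CPM per kb in this mean over all units. Of the middle genes (groups 5 to 8) 2 of 11 did, and of the anterior genes (groups 1 to 4) 0 of 11. The median level was 0.0863 CPM per kb for posterior, 0.0278 for middle and 0.0366 for anterior genes. The anterior gene with the highest level was Hoxd1 with 0.0909, and Hoxb4 had 0.0893. This split depends on the experiment. In the rescue cultures the anterior genes Hoxd1 (0.174), Hoxb4 (0.1345), Hoxb1 (0.106) and Hoxc4 (0.105) were above 0.1. There the middle gene Hoxb7 (0.128) and the posterior genes Hoxb13 (0.112) and Hoxa11 (0.103) were too. The highest anterior gene was Hoxb4 with 0.0810 in the clone units and Hoxd1 with 0.0676 in the POLE4 libraries. At the other end 8 of 38 genes stayed under 0.02, among them 2 posterior ones, Hoxd12 and Hoxa9. Hoxd3 was the lowest with 0.00111 CPM per kb and had a count of 0 in 52 of 63 units, as Hoxa6 did. In the 12 POLE4 libraries together Hoxa2 and Hoxa6 had no count at all, which allows a level of up to 0.0113 CPM for each, counting error only. The levels rest on exon lengths, and 9 members share an exon with a gene on the same strand and 9 face one on the opposite strand. The 23 members free of both include Hoxa10, Hoxa13, Hoxb9, Hoxc13, Hoxd8, Hoxd9 and Hoxd13. Of other genes with values below, Hoxa7 and Hoxa11 face an opposite-strand exon, and Hoxd10 and Hoxd11 share an exon with a same-strand gene.

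**Figure D1:**
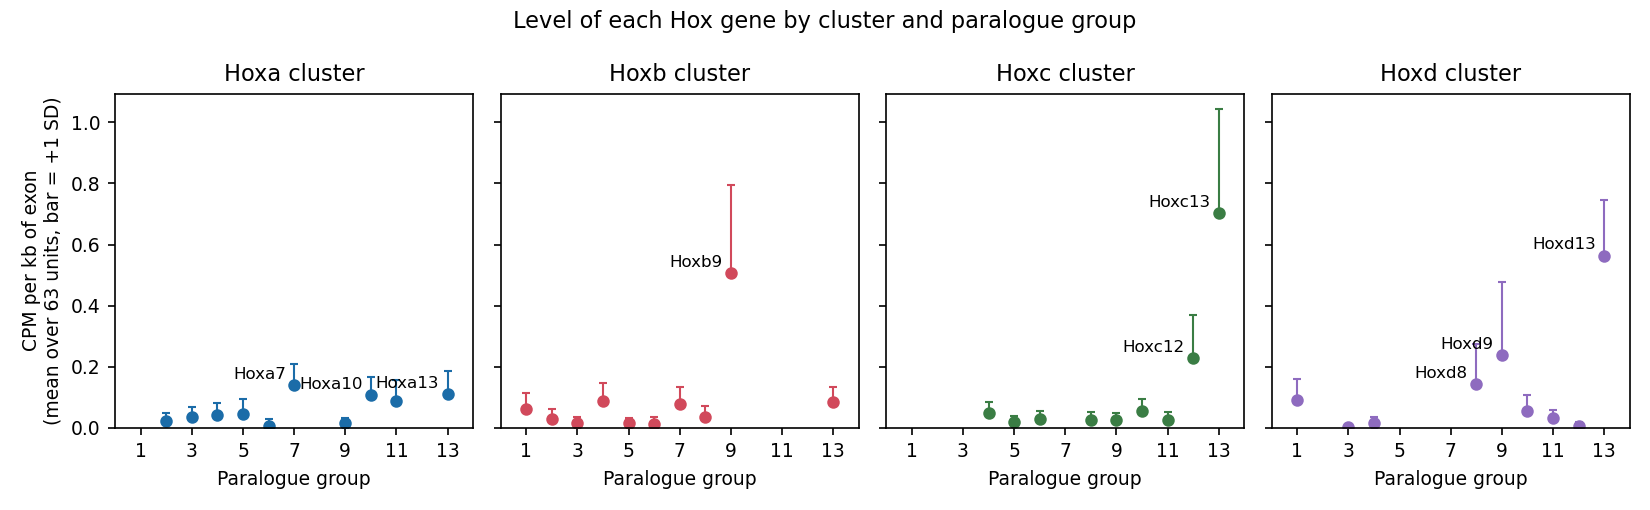
Each point is the mean level of 1 Hox gene in CPM per kilobase of exon (y axis) over 63 units, with a bar of 1 SD upward, plotted by paralogue group (x axis) in a panel per cluster. Hoxc13, Hoxd13 and Hoxb9 stand between 0.505 and 0.703, and no gene of paralogue groups 1 to 4 reaches 0.1 in this mean, though some do in the rescue experiment alone.

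The promoters of 4 of the members described below are printed to show how they differ in CG content, the feature by which Polycomb target promoters are commonly recognised. Each is the 250 bases before the RefSeq start (GRCm38.p6), 5′ to 3′ on the strand of the gene, with CG dinucleotides in capitals. That of Hoxa13 is chr6:52260881-52261130 (minus strand), that of Hoxd13 chr2:74667975-74668224, that of Hoxd9 chr2:74697513-74697762 and that of Hoxd8 chr2:74704365-74704614 (all plus strand).
Hoxa13: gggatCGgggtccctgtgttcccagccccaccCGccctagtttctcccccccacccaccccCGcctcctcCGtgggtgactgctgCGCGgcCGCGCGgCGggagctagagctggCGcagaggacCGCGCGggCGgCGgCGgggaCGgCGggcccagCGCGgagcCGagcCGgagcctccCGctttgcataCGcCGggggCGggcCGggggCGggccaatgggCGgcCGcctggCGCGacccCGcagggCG
Hoxd13: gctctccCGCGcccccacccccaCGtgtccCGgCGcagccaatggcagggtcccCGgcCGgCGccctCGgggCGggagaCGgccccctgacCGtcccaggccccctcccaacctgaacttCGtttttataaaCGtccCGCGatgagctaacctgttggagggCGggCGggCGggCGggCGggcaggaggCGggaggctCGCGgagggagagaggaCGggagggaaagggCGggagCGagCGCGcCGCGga
Hoxd9: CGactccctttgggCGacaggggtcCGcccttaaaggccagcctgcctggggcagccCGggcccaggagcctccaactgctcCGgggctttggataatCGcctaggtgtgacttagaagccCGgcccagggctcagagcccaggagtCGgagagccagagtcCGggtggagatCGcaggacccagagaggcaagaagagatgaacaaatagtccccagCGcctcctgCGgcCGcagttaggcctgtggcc
Hoxd8: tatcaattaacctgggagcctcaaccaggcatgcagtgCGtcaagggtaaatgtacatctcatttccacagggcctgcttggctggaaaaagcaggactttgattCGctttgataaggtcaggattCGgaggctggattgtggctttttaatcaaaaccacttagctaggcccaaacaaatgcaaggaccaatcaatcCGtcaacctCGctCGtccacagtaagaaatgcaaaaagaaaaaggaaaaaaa
The Hoxa13 stretch holds 35 CG, a number that 2.97% of the 32851 promoters in the table reach, and that of Hoxd13 holds 31 (reached by 5.19%). Hoxd9 has 13 (31.5%) and Hoxd8 has 6 (50.4%). Hoxa10, not printed, has 2 entries, with 7 CG (46.3%) and 20 CG (17.9%), and Hoxb9 and Hoxc13 have no entry. Over the 24 promoters of the 22 members with an entry the median was 12.5 CG and the range 2 to 35, against a median of 6 for all promoters. The letters TTTATNG, the core of the sequence bound by Cdx factors, were searched on both strands and found in 2 of the 24 (8.33%), those of Hoxd4 and Hoxb8, beside 9.81% of all promoters.

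The rescue experiment asks whether the expression of MCM2-2A cells differs from that of WT cells and returns when the mutation is reverted. The summed level of the 38 genes had a mean of 11.003 ± 1.54 CPM in WT#1 (SD, n = 4), 14.7 ± 0.687 in MCM2-2A#2 and 12.2 ± 2.59 in MCM2-R#2. The lowest MCM2-2A#2 culture (13.9) lay above the highest WT#1 culture (13.2), while the MCM2-R#2 cultures ran from 9.53 to 15.2 and overlapped both. By position, the anterior genes summed to 1.77 to 2.24 CPM in the WT#1 cultures and 2.45 to 2.68 in those of MCM2-2A#2, and the middle genes to 1.52 to 1.71 and 2.17 to 2.50, in both cases without overlap. The posterior genes summed to 6.19 to 9.46 CPM in WT#1 and 9.04 to 10.4 in MCM2-2A#2, which overlapped.

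Of the 12 sums by cluster and position, 4 did not overlap between MCM2-2A#2 and WT#1, with 3 above and 1 below WT#1. Posterior Hoxa stood at 0.528 to 0.998 CPM in WT#1, 1.43 to 1.99 in MCM2-2A#2 and 0.399 to 1.24 in MCM2-R#2. Anterior Hoxb stood at 0.497 to 0.845 CPM in WT#1, 1.13 to 1.49 in the mutant and 0.507 to 1.05 in the reverted cultures. For these 2 sums the mutant overlapped with neither other line. Middle Hoxb (0.169 to 0.326 CPM in WT#1, 0.448 to 0.967 in the mutant) and anterior Hoxa (0.616 to 0.808 and, lower, 0.409 to 0.590) overlapped with MCM2-R#2. These sums are descriptions with no test, and how often sums of other genes part in this way was not computed. In bulk RNA, fewer cells that express a gene and less of its RNA per cell cannot be told apart.

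Only 11 of 38 members had enough counts to be tested in the rescue experiment. In MCM2-2A#2 against WT#1, 1 of them rose, Hoxd13, where 1.80% of 17098 genes were called higher (adjusted p below 0.01 and a log2 fold change above 0.58). None of the 11 was called lower with edgeR, where 0.959% of all genes were, and DESeq2 called 0 lower too. The 2 genes at an unadjusted p under 0.05, Hoxd13 and Hoxa11, were both higher. Of all 17098 genes 5010 were at that p, in either direction. With numbers this small the count of members is no evidence that Hox genes were called more often than others. A gene that is high in 1 line passes the count filter through that line, so the median log2 fold change of the 11 (0.26, all genes 0.0070) only describes them.

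Hoxd13, which patterns digits and the genital tubercle, read 0.803, 0.435, 0.778 and 0.653 CPM in WT#1 cultures 1 to 4. In MCM2-2A#2 it read 1.07, 1.52, 2.14 and 1.42. Every mutant culture was above every WT#1 culture, and the log2 fold change was 1.16 (SE 0.26, edgeR adjusted p = 0.0091). In MCM2-R#2 it read 1.01, 0.900, 1.61 and 1.29 CPM, overlapping the mutant and lying above all WT#1 cultures. Neither step was called: the log2 fold change was 0.81 (SE 0.27, adjusted p = 0.26) against WT#1 and -0.34 (SE 0.24, adjusted p = 0.43) against MCM2-2A#2. The call is a narrow one, since the adjusted p was 0.012 to 0.026 without any 1 of WT#1 cultures 1 to 4, MCM2-2A#2 cultures 2 to 4 or MCM2-R#2 cultures 1 and 4, and 0.0126 on the first sequencing run alone. Without WT#1 culture 2, Hoxa11 was called in its place.

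Hoxa11, which patterns the forearm and the uterus, had the steepest slope between the lines but few counts. It read 0.0845, 0.254, 0.135 and 0 CPM in the WT#1 cultures and 0.724, 0.446, 0.402 and 0.486 in those of MCM2-2A#2. In MCM2-R#2 it read 0, 0.0900, 0.146 and 0.0696. The mutant overlapped with neither other line, with a log2 fold change of 2.08 (SE 0.51, adjusted p = 0.016) against WT#1 and of -2.69 (SE 0.58, adjusted p = 0.013) from MCM2-2A#2 to MCM2-R#2. DESeq2 called both steps.

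Hoxa10 read 0.507, 0.254, 0.541 and 0.373 CPM in WT#1, 0.414, 0.446, 0.536 and 0.624 in MCM2-2A#2, and 0.0725, 0.270, 0.219 and 0.174 in MCM2-R#2. WT#1 and the mutant overlapped (log2 fold change 0.25, SE 0.29, adjusted p = 0.61), and the reverted cultures lay below the mutant (-1.45, SE 0.35, adjusted p = 0.022). Hoxa13, a partner of Hoxd13 in limb and hindgut, was too low to be tested. It read 0.211, 0.145, 0.220 and 0.0311 CPM in WT#1, 0.310, 0.409, 0.268 and 0.555 in MCM2-2A#2, and 0.217, 0.240, 0.548 and 0.243 in MCM2-R#2. Its mutant cultures lay above those of WT#1 and overlapped those of MCM2-R#2.

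**Figure D2:**
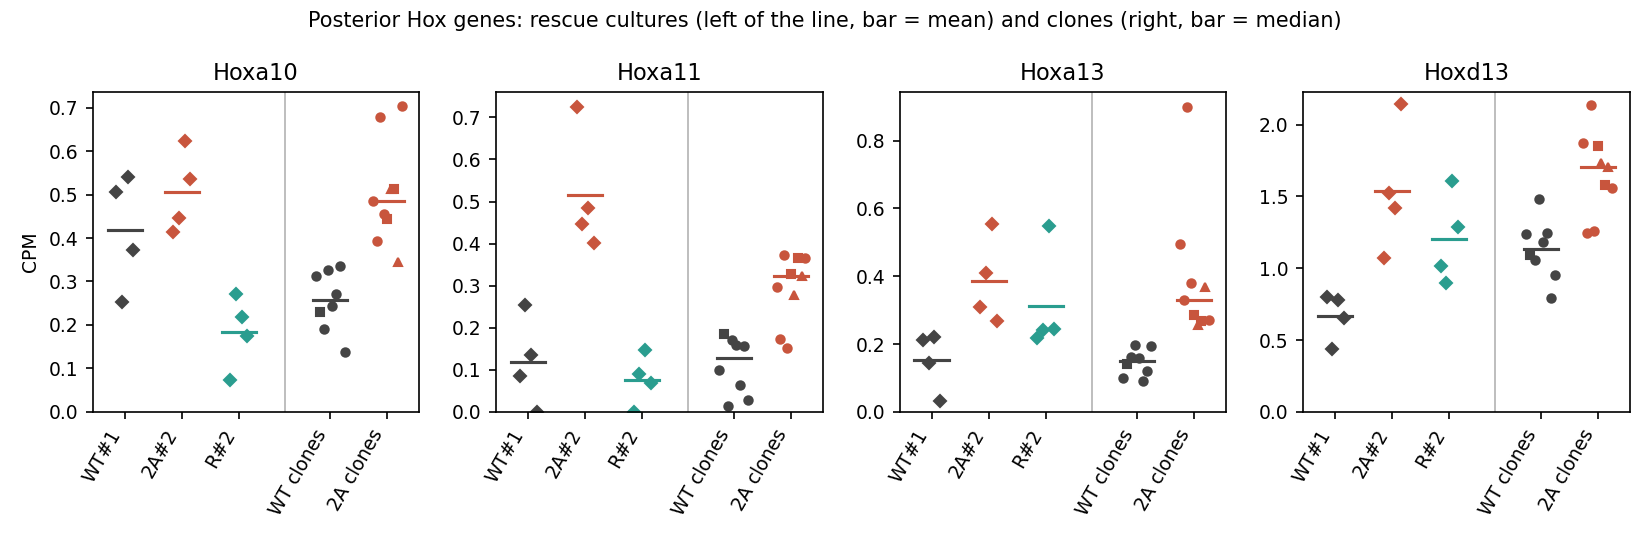
CPM (y axis) of Hoxa10, Hoxa11, Hoxa13 and Hoxd13 in the 4 cultures of each rescue line (diamonds, bar at the mean) and, right of the line, in the WT and MCM2-2A clones (triangle January, square March, circle August, bar at the median). Hoxa13 tops out at 0.196 in WT clones and starts at 0.257 in MCM2-2A clones.

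Hoxc13, Hoxb9 and Hoxa7, each the highest of its cluster per kilobase in the mean over all units, overlapped between the rescue lines. Hoxc13, a gene of the hair follicle and tail, read 3.68, 3.01, 1.76 and 2.83 CPM in WT#1, 3.03, 3.20, 2.50 and 2.81 in MCM2-2A#2 and 2.61, 3.09, 2.59 and 2.99 in MCM2-R#2 (mutant against WT#1: log2 fold change 0.06, SE 0.18, adjusted p = 0.86). Hoxb9 read 1.99, 1.48, 1.45 and 1.49 CPM in WT#1, 2.41, 2.12, 1.65 and 1.79 in MCM2-2A#2 and 1.41, 1.41, 2.59 and 2.40 in MCM2-R#2 (0.32, SE 0.22, adjusted p = 0.36). Hoxa7 read 0.760, 0.869, 0.575 and 0.497 CPM in WT#1, 1.03, 0.707, 0.893 and 0.624 in MCM2-2A#2 and 0.362, 0.600, 0.329 and 0.730 in MCM2-R#2 (0.26, SE 0.27, adjusted p = 0.56). Hoxd8 read 0.211, 0.109, 0.338 and 0.497 CPM in WT#1, 0.241, 0.298, 0.536 and 0.607 in the mutant and 0.109, 0.240, 0.548 and 0.348 in the reverted line. Hoxd9 read 1.14, 0.290, 0.372 and 0.497 CPM in WT#1, 0.414, 0.335, 0.893 and 0.781 in the mutant and 0.399, 0.210, 1.06 and 0.452 in the reverted line. These neighbouring genes overlapped between the lines as well. Among the remaining tested members Hoxa3 (log2 fold change -0.42), Hoxb4 (0.55), Hoxc12 (0.25), Hoxd8 (0.52) and Hoxd9 (0.19) had adjusted p-values of 0.34 to 0.84.

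No tested member was called between MCM2-R#2 and WT#1 with edgeR or DESeq2 (background 0.0292% called higher and 0.269% lower). There 2 of 11 were at an unadjusted p under 0.05, Hoxa10 lower and Hoxd13 higher, as were 1913 of 17098 genes. None was called between MCM2-R#2 and MCM2-2A#2 with edgeR (background 0.468% higher and 0.901% lower). In that comparison 4 of 11 were at an unadjusted p under 0.05 (Hoxa7, Hoxa10, Hoxa11 and Hoxb4, all lower after reversion), as were 4167 of 17098 genes. DESeq2 called Hoxa11. The comparisons of the 3 lines share their cultures, and part of the WT#1 and MCM2-2A#2 counts but none of MCM2-R#2 comes from a second sequencing run.

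The regulators listed for the Hox clusters were not called between MCM2-2A#2 and WT#1. Over all genes 5010 of 17098 were at an unadjusted p under 0.05 there. In MCM2-2A#2 against WT#1 edgeR called 0 of 31 Polycomb subunits (10 at an unadjusted p under 0.05), 0 of 13 trithorax genes and H3K27 demethylases (4), 0 of 9 TALE cofactors, which bind DNA together with Hox proteins (3), 0 of 4 Cdx and Evx genes (0), 0 of 16 retinoic acid genes (6) and 0 of 17 genes flanking the clusters (6). Among the noncoding RNAs of the clusters 1 of 14 could be tested, Halr1, and it was not called. After reversion 1 of these genes was called, Crabp1, a retinoic acid carrier (log2 fold change -0.64 from MCM2-2A#2 to MCM2-R#2, SE 0.11, adjusted p = 0.0046). Markers of primitive endoderm, the extraembryonic lineage that ESC cultures can form, moved beside the Hox genes: 12 of 15 rose in MCM2-2A#2, such as Gata6 (2.29, SE 0.19, adjusted p = 4.3e-06) and Sox17 (2.17, SE 0.25, adjusted p = 8.6e-05), and 11 of 15 fell on reversion. The summed level of the 16 listed markers was 476 to 549 CPM in WT#1, 735 to 836 in MCM2-2A#2 and 516 to 630 in MCM2-R#2, with none at 0. Fgf17, 1 of 11 tested mesoderm and posterior markers, and Map2, 1 of 8 neural markers, fell in MCM2-2A#2 (log2 fold change -0.72 and -0.66). The part of these markers in the Hox levels was not tested.

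The clone experiment asks whether the difference holds across independent MCM2-2A clones. Libraries were summed per clone and batch, giving 8 WT units and 9 MCM2-2A units. WT#1 (August and March) and MCM2-2A#1 (January and March) each enter more than once, so not all units are independent clones. The summed Hox level had a median of 6.25 CPM in WT (2.61 in WT#6 to 9.02 in WT#1) and of 8.86 in MCM2-2A (6.48 in MCM2-2A#4 to 15.3 in MCM2-2A#1), and the ranges overlapped. WT#1 was the highest WT clone, at 9.02 CPM in August and 8.95 in March. MCM2-2A#1 read 15.3 in January and 15.2 in March. January holds MCM2-2A clones only, so there batch and genotype cannot be told apart.

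**Figure D3:**
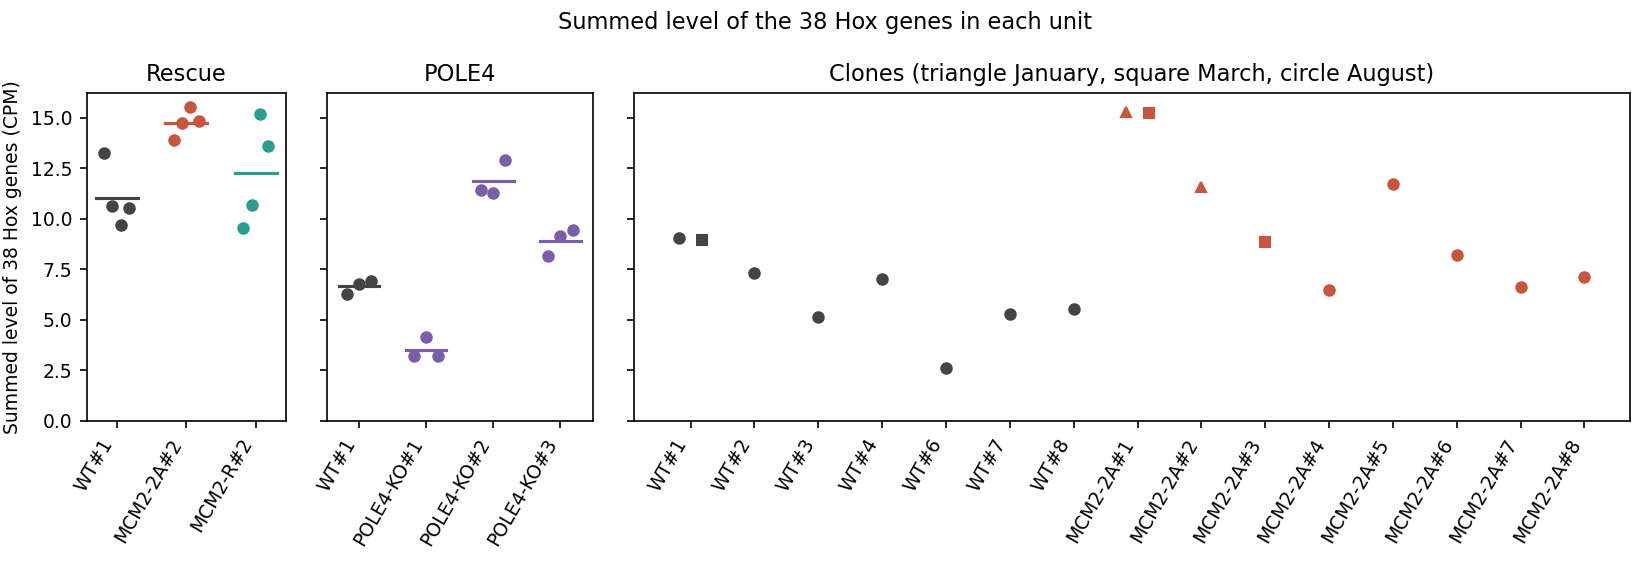
Each symbol is the summed level of the 38 Hox genes in CPM (y axis) of 1 rescue culture, 1 POLE4 library or 1 clone in 1 batch, by line (x axis), with bars at the mean of a line in the rescue and POLE4 panels. In POLE4 the lines do not overlap, from 3.18 to 4.13 in POLE4-KO#1 up to 11.3 to 12.9 in POLE4-KO#2. The 3 tables were scaled separately.

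Of 38 members 28 were tested in the clone experiment, and 2 rose in MCM2-2A, Hoxa10 and Hoxa13, where 0.628% of 23265 genes were called higher. None was called lower (background 0.0516%), and the 6 members at an unadjusted p under 0.05 were all higher. Of all 23265 genes 4712 were at that p, in either direction. DESeq2 called 5 members, all higher: Hoxa10, Hoxa11, Hoxa13, Hoxd10 and Hoxd11. The shares of all genes above are those of edgeR and are no background for the DESeq2 count, whose own share is not given here. With no filter on low counts 1 remained past the limits, Hoxa13, so the share of members called moves with the method. The members called are 2 genes of 1 cluster, too few to set Hox genes apart from the background.

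Hoxa13 stood at 0.0907 to 0.196 CPM in the WT units (median 0.149, n = 8) and at 0.257 to 0.900 in the MCM2-2A units (median 0.331, n = 9). The groups did not overlap, the highest unit was MCM2-2A#8, and the log2 fold change was 1.55 (SE 0.27, adjusted p = 0.0051). Within the August batch alone, with clones as units, the log2 fold change was 1.70 (adjusted p = 0.020). Within March it was 0.97 (adjusted p = 0.20) with single libraries as units. WT#1 was the only WT clone in March, so clone and genotype cannot be told apart there. The call was lost without WT#1 (adjusted p = 0.031), MCM2-2A#6 (0.014), WT#3 (0.012), MCM2-2A#4 (0.011) or WT#4 (0.01005).

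Hoxa10 stood at 0.139 to 0.335 CPM in WT (median 0.258) and at 0.346 to 0.705 in MCM2-2A (median 0.485), again with no overlap (log2 fold change 1.05, SE 0.21, adjusted p = 0.0098). Within August, with clones as units, it was 1.05 (adjusted p = 0.041). Within March, with single libraries as units and WT#1 as the only WT clone, it was 1.03 (adjusted p = 0.15). Leaving out any 1 of the 15 clones ended the call, with log2 fold changes of 0.96 to 1.13 and adjusted p-values of 0.0104 to 0.056. In the fit without WT#1 and MCM2-2A#2, the clones that the rescue experiment also used, the log2 fold change was 1.11 for Hoxa10 (adjusted p = 0.065) and 1.63 for Hoxa13 (adjusted p = 0.041).

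Other genes of paralogue groups 10 to 13 had positive fold changes that missed the limits in edgeR. Hoxa11 stood at 0.0147 to 0.185 CPM in WT (median 0.128) and 0.152 to 0.374 in MCM2-2A (median 0.322), with a log2 fold change of 1.31 (SE 0.36, adjusted p = 0.051). Hoxd10 stood at 0 to 0.0891 in WT and 0.0607 to 0.306 in MCM2-2A (1.71, SE 0.43, adjusted p = 0.036), and Hoxd11 at 0.0125 to 0.162 and 0.123 to 0.386 (1.23, SE 0.33, adjusted p = 0.047). For these 3 genes the ranges overlapped at their ends. Hoxd13, called in the rescue experiment, stood at 0.790 to 1.48 CPM in WT (median 1.14) and 1.25 to 2.14 in MCM2-2A (median 1.70), with a log2 fold change of 0.54 (SE 0.15, adjusted p = 0.056).

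Hoxc13, Hoxb9 and Hoxa7 overlapped between the genotypes in the clones too. Hoxc13 stood at 0.308 to 1.71 CPM in WT (median 1.12) and 0.543 to 2.14 in MCM2-2A (median 1.45), with a log2 fold change of 0.17 (SE 0.29, adjusted p = 0.80). For Hoxb9 the range was 0.162 to 1.40 CPM in WT (median 0.969) and 0.187 to 2.702 in MCM2-2A (median 1.38), with 0.24 (SE 0.38, adjusted p = 0.79). Hoxa7 stood at 0.162 to 0.467 CPM in WT (median 0.316) and 0.264 to 0.556 in MCM2-2A (median 0.381), with 0.09 (SE 0.23, adjusted p = 0.87). Hoxd8 stood at 0.0587 to 0.488 CPM in WT (median 0.301) and 0.0911 to 1.19 in MCM2-2A (median 0.153), and Hoxd9 at 0 to 1.15 (median 0.213) and 0.0661 to 1.82 (median 0.193). With these 2 genes, the 19 other tested members had log2 fold changes of -0.32 (Hoxd9) to 0.99 (Hoxb1) and adjusted p-values of 0.31 or more.

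Across all 38 members, tested or not, the MCM2-2A median lay above the WT median in 31, and in 29 within August alone. By position this was so for 15 of 16 posterior, 7 of 11 middle and 9 of 11 anterior genes over all clones, and for 14, 8 and 7 within August. The 4 posterior Hoxa genes together summed to 0.367 to 0.825 CPM in WT units and 0.978 to 1.99 in MCM2-2A units, which did not overlap, the only 1 of the 12 sums by cluster and position of which this was so. Those of the Hoxd cluster summed to 1.22 to 2.49 CPM in WT and 1.62 to 3.904 in MCM2-2A, which did. These counts and sums describe genes that share libraries and neighbours and carry no test. The share of all genes with a higher MCM2-2A median was not computed, so the counts do not set Hox genes, or posterior ones, apart. Some medians were at the floor, such as 0 CPM for Hoxa6 in both genotypes.

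**Figure D4:**
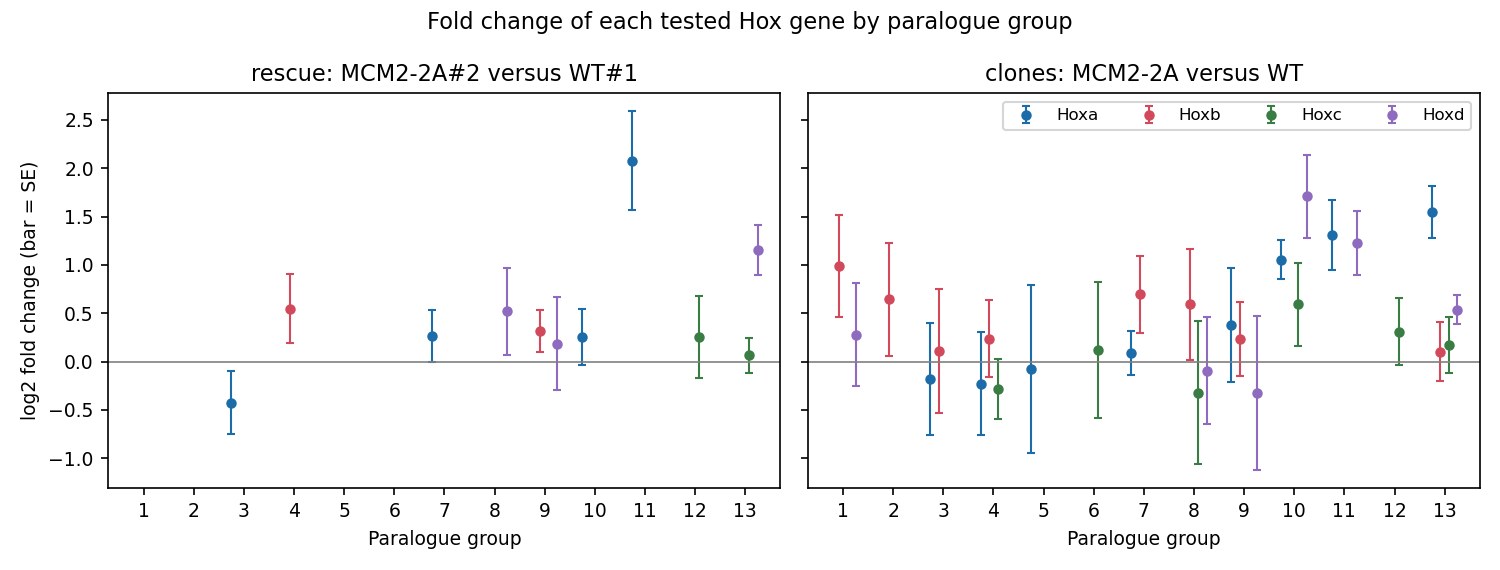
Log2 fold change with its SE (y axis) of each tested Hox gene by paralogue group (x axis), coloured by cluster, for MCM2-2A#2 against WT#1 in the rescue experiment and for MCM2-2A against WT clones. In the clones the 5 genes from 1.05 to 1.71 all belong to groups 10 to 13 of the Hoxa and Hoxd clusters. The anterior gene Hoxb1 follows closely at 0.99 (SE 0.52). The other tested genes of groups 10 to 13 run from 0.10 (Hoxb13) to 0.59 (Hoxc10).

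Neither the flanking genes nor the regulators were called in the clones. Over all genes 4712 of 23265 were at an unadjusted p under 0.05 there. EdgeR called 0 of 31 Polycomb subunits (5 at an unadjusted p under 0.05), 0 of 13 trithorax genes and demethylases (2), 0 of 9 TALE cofactors (1), 0 of 4 Cdx and Evx genes (0), 0 of 18 retinoic acid genes (1), 0 of 19 flanking genes (4) and 0 of 3 tested noncoding RNAs of the clusters (0). Beside the Hox genes, 3 of 15 primitive endoderm markers rose, Gata6 (log2 fold change 1.69, SE 0.24, adjusted p = 0.0012), Pdgfra (1.20) and Sox17 (1.24). The 16 endoderm markers summed to 417.99 to 539 CPM in WT units, where Ttr was at 0, and to 505.99 to 684 in MCM2-2A units, and their part in the Hox levels was not tested.

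Clones of 1 genotype also differed among themselves. Among the 7 August WT clones, with 2 libraries each, 4 of 14 tested members differed, where 33.3% of 20587 genes did: Hoxd9 (adjusted p = 0.00024), Hoxb9 (0.00072), Hoxc13 (0.0019) and Hoxd8 (0.0093). Among the 5 August MCM2-2A clones 2 of 14 differed, Hoxb9 (0.00050) and Hoxc13 (0.0014), where 17.4% of all genes did. These shares of members are near the background or rest on too few genes to be set apart from it. The genes that differed between clones are given with their values below. Hoxa10, Hoxa13 and Hoxd13 had adjusted p-values of 0.48, 0.58 and 0.46 among WT clones and of 0.57, 0.050 and 0.33 among MCM2-2A clones.

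The spread between clones was wide for the members concerned. Hoxd9 read 0 in both August libraries of WT#6, which allows up to 0.0436 CPM over the pair, and averaged 0.0666 in WT#7, 0.115 in WT#3, 0.151 in WT#8, 0.294 in WT#4, 0.467 in WT#2 and 1.13 in WT#1. Hoxd8, its neighbour, averaged 0.0603 CPM in WT#6, 0.0722 in WT#7, 0.153 in WT#3, 0.238 in WT#8, 0.365 in WT#2, 0.431 in WT#4 and 0.478 in WT#1. WT#6 was the lowest and WT#1 the highest for both genes.

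Hoxb9 averaged 0.164 CPM in WT#6, 0.560 in WT#7, 0.572 in WT#3, 0.903 in WT#8, 1.03 in WT#1, 1.05 in WT#2 and 1.08 in WT#4. Hoxc13 averaged 0.306 CPM in WT#6, 0.918 in WT#4, 0.963 in WT#8, 0.968 in WT#3, 1.26 in WT#2, 1.33 in WT#7 and 1.45 in WT#1. WT#6 stood apart at the low end for both, its libraries overlapping with those of no other WT clone. Further up the order, the libraries of WT#3 and WT#8 did not overlap for Hoxb9, nor those of WT#3 and WT#2 for Hoxc13, and the other neighbours overlapped. Among MCM2-2A clones #8, #7, #6, #4 and #5, Hoxb9 averaged 0.181, 0.752, 0.890, 0.901 and 1.62 CPM in that order. Hoxc13 was likewise lowest in clone #8 (0.520) and highest in clone #5 (2.19). Hoxa13 ran the other way there, with its highest mean in MCM2-2A#8 (0.868 CPM) and its lowest in MCM2-2A#5 (0.278). The posterior regulators Cdx1 (edgeR adjusted p = 7.2e-08) and Cdx2 (3.3e-07) differed among the same WT clones, as did 12 of 16 fibroblast markers. This was not particular to them, since 33.3% of all 20587 genes differed there. Other lists did too, with 9 of 12 pluripotency markers, 11 of 16 retinoic acid genes and 11 of 31 Polycomb subunits. The part of these genes in the Hox levels was not tested.

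The POLE4 experiment removes a polymerase subunit whose loss is known to shift parental histones toward the lagging strand. Pole4 itself read 59.1 ± 2.67 CPM in WT#1 (SD, n = 3), 3.17 ± 0.472 in POLE4-KO#1, 7.33 ± 0.970 in POLE4-KO#2 and 3.76 ± 0.998 in POLE4-KO#3. The summed Hox level was 6.65 ± 0.350 CPM in WT#1, 3.50 ± 0.546 in POLE4-KO#1, 11.9 ± 0.887 in POLE4-KO#2 and 8.90 ± 0.659 in POLE4-KO#3. The libraries of the 4 lines did not overlap, so 1 knockout clone lay below WT#1 and 2 lay above it. Only 5 of 38 members had enough counts to be tested here: Hoxb9, Hoxc13, Hoxd8, Hoxd9 and Hoxd13.

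For the mean of the 3 knockout clones against WT#1, edgeR and DESeq2 called 0 of 5 members, with 1 at an unadjusted p under 0.05. EdgeR called 2.21% of 16864 genes higher and 3.53% lower, and 5934 of these genes were at an unadjusted p under 0.05. Taken by clone, edgeR called 2 lower in POLE4-KO#1, Hoxb9 and Hoxd9 (background 7.81% lower, 3.70% higher), 1 higher in POLE4-KO#2, Hoxc13 (background 4.97% higher, 6.32% lower), and 0 in POLE4-KO#3 (background 2.56% higher, 0.427% lower). In POLE4-KO#3 DESeq2 also called 0, and 2 members, Hoxb9 and Hoxc13, were at an unadjusted p under 0.05, as were 4796 of 16864 genes. All 5 differed among the 3 knockout clones, where 31.2% of genes did. With 5 members these counts cannot be set apart from the background.

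Hoxb9, a gene of the thorax and mammary gland, read 0.635, 0.904 and 0.816 CPM in WT#1 and 0.107, 0.348 and 0.153 in POLE4-KO#1. It read 1.26, 1.36 and 0.873 CPM in POLE4-KO#2 and 1.23, 1.90 and 2.02 in POLE4-KO#3. POLE4-KO#1 lay below all other libraries and POLE4-KO#3 above those of WT#1, with log2 fold changes of -1.90 (SE 0.42, adjusted p = 0.0031) for POLE4-KO#1, 0.54 (SE 0.32, adjusted p = 0.21) for POLE4-KO#2 and 1.11 (SE 0.30, adjusted p = 0.025) for POLE4-KO#3.

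Hoxd9 read 0.488, 0.339 and 0.528 CPM in WT#1 and 0.0533, 0 and 0.0765 in POLE4-KO#1, where its 3 counts set against 30 give 9.99% of the WT#1 level (95% exact interval 1.95 to 32.1%, counting error only). In POLE4-KO#2 it read 0.340, 1.15 and 0.830 CPM and in POLE4-KO#3 0.307, 0.232 and 0.374. It fell in POLE4-KO#1 (log2 fold change -3.17, SE 0.72, adjusted p = 0.0038), and the other clones were at 0.79 (adjusted p = 0.18) and -0.55 (adjusted p = 0.51). Hoxd8 read 0.342, 0.301 and 0.336 CPM in WT#1, 0.0533, 0.0435 and 0.0765 in POLE4-KO#1, 0.486, 0.596 and 1.27 in POLE4-KO#2 and 0.429, 0.510 and 0.187 in POLE4-KO#3. Its log2 fold changes were -2.35 (SE 0.70, adjusted p = 0.019), 1.25 (SE 0.43, adjusted p = 0.040) and 0.13 (SE 0.50, adjusted p = 0.90), none of them called.

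Hoxc13 read 1.12, 1.62 and 1.63 CPM in WT#1, 0.746, 0.870 and 0.765 in POLE4-KO#1, 2.23, 2.60 and 3.45 in POLE4-KO#2 and 2.15, 2.92 and 2.35 in POLE4-KO#3. It rose in POLE4-KO#2 (log2 fold change 0.90, SE 0.22, adjusted p = 0.0063), while POLE4-KO#1 (-0.87, adjusted p = 0.020) and POLE4-KO#3 (0.73, adjusted p = 0.043) missed the limits. Hoxd13 read 1.42, 1.58 and 1.01 CPM in WT#1, 1.12, 1.17 and 1.42 in POLE4-KO#1, 2.43, 2.04 and 2.27 in POLE4-KO#2 and 1.23, 1.16 and 1.42 in POLE4-KO#3. It overlapped with WT#1 in 2 clones and lay above it in POLE4-KO#2 (0.72, SE 0.21, adjusted p = 0.018). Hoxa7, too low to be tested here, read 0.195, 0.264 and 0.432 CPM in WT#1, 0.0533, 0.261 and 0.153 in POLE4-KO#1, 0.146, 0.255 and 0.306 in POLE4-KO#2 and 0.429, 0.232 and 0.0747 in POLE4-KO#3, which overlapped.

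Hoxa10 and Hoxa13, called in the clones, were too low to be tested here, with 0 to 11 counts per library. Hoxa13 read 0.0488, 0.151 and 0.0960 CPM in WT#1, 0.107, 0.261 and 0.0765 in POLE4-KO#1, 0.486, 0.383 and 0.437 in POLE4-KO#2 and 0.429, 0.185 and 0.299 in POLE4-KO#3. POLE4-KO#2 and POLE4-KO#3 lay above all WT#1 libraries. Hoxa10 read 0.0977, 0.339 and 0.144 CPM in WT#1, 0.107, 0.131 and 0 in POLE4-KO#1, 0.486, 0.468 and 0.393 in POLE4-KO#2 and 0, 0.0463 and 0.224 in POLE4-KO#3, so that only POLE4-KO#2 lay above WT#1. The posterior Hoxa genes summed to 0.244 to 0.528 CPM in WT#1 and 0.937 to 1.36 in POLE4-KO#2.

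**Figure D5:**
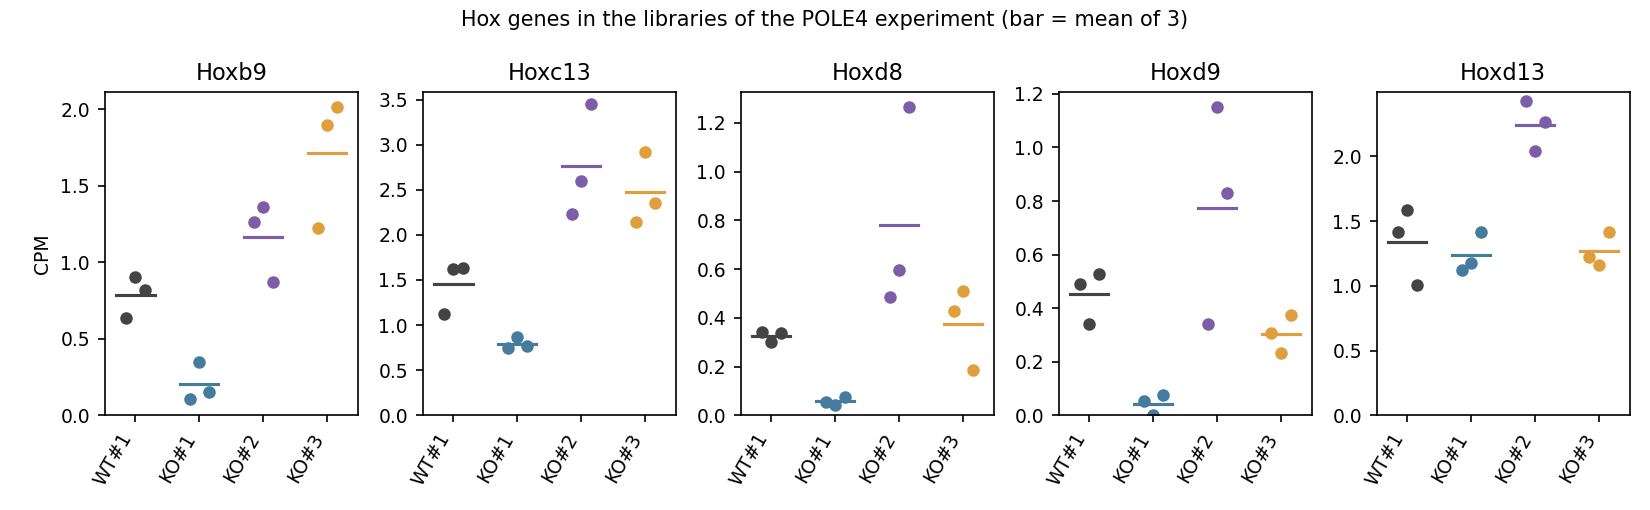
CPM (y axis) of the 5 tested Hox genes in the 3 libraries of WT#1 and of each POLE4-KO clone (points, bar at the mean). POLE4-KO#1 is lowest for Hoxb9, Hoxc13, Hoxd8 and Hoxd9, and POLE4-KO#2 is highest for Hoxd13.

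The calls in single knockout clones are narrow. In POLE4-KO#1 that of Hoxb9 was lost without WT#1 library r7 (adjusted p = 0.014) or r8 (0.0102), or without replicate 1 (0.016) or 3 (0.021) of the clone, and that of Hoxd9 without WT#1 library r6 (0.0125) or r8 (0.014), or replicate 1 (0.013) or 2 (0.017). That of Hoxc13 in POLE4-KO#2 was lost without any 1 of the 3 WT#1 libraries (0.0125 to 0.034) or replicate 2 (0.014) or 3 (0.046) of the clone.

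Regulators and neighbours were called in the knockout clones, and differently in each. Over all 16864 genes edgeR called 3.70% higher and 7.81% lower in POLE4-KO#1. The shares were 4.97% and 6.32% in POLE4-KO#2, and 2.56% and 0.427% in POLE4-KO#3. In POLE4-KO#1 2 of 4 Cdx and Evx genes fell, Cdx1 (log2 fold change -3.42, SE 0.34, adjusted p = 1.5e-06) and Cdx2 (-2.82, SE 0.23, adjusted p = 1.5e-07), and 6 of 14 retinoic acid genes fell, such as Cyp26a1, which degrades retinoic acid (-2.46), and Rdh10, which makes its precursor (-1.44). In POLE4-KO#2 Cdx1 (-1.93) and Rdh10 (-0.86) fell, and in POLE4-KO#3 1 of the 14 retinoic acid genes rose, Rxra (0.68). Of 9 TALE cofactors 1 rose and 1 fell in POLE4-KO#1 (Meis1 1.10, Pbx3 -0.73), 2 rose and 2 fell in POLE4-KO#2 (Meis2 1.78, Pknox2 1.12, Pbx3 -1.10, Meis3 -1.21), and 1 rose in POLE4-KO#3 (Meis1 0.94).

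Of 31 Polycomb subunits 2 were called in POLE4-KO#1 (Phf19 1.06, Yaf2 -1.18), 3 in POLE4-KO#2 (Phf19 0.65, Bmi1 0.77, Yaf2 -0.79) and 0 in POLE4-KO#3 (15 at an unadjusted p under 0.05 with edgeR). None of 13 trithorax genes and demethylases was called by edgeR in any clone, with 7, 6 and 2 at an unadjusted p under 0.05 in POLE4-KO#1, POLE4-KO#2 and POLE4-KO#3. Over all 16864 genes the counts at that p were 6531, 7003 and 4796 in the same order. Beside the shares of all genes called, the Polycomb and trithorax counts do not set these lists apart. Ttll6, a gene beside the Hoxb cluster, rose in every knockout clone (0.88, 2.33 and 0.96), the only one of 18 flanking genes called in all of them, against the same 3 WT#1 libraries. The single noncoding RNA of the clusters that could be tested, Halr1, was not called in any of them.

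Markers of other cell types were also called in the knockout clones, where the shares of all genes called are those given above. In POLE4-KO#1 9 of 12 fibroblast markers fell, with Col1a1 at 1.05 ± 0.199 CPM against 61.7 ± 2.52 in WT#1, and the 18 listed markers summed to 505.7 to 619 CPM against 843 to 957. Fap, Lum and Prrx1 were at 0 there, and Fap was at 0 in WT#1 too. Of 11 tested mesoderm and posterior markers 6 fell there, among them T (log2 fold change -5.41), Nkx1-2 (-5.20) and Fgf8 (-3.93), and 2 rose. The 18 listed ones summed to 97.9 to 101 CPM there and 71.8 to 80.6 in WT#1. In POLE4-KO#2 and POLE4-KO#3 they summed to 44.4 to 52.0 and 48.6 to 59.6 CPM. Hand2 and Msgn1 were at 0 in POLE4-KO#1, Msgn1 in POLE4-KO#2 and Tbx5 in POLE4-KO#3. In POLE4-KO#2, where the summed Hox level was the highest, 6 of 12 fibroblast markers and 5 of 11 mesoderm and posterior markers fell as well, 1 of the latter rose (Hand1, log2 fold change 0.77), and Col1a1 was at 3.74 ± 0.565 CPM. In POLE4-KO#3 0 of 12 fibroblast markers were called (4 at an unadjusted p under 0.05 with edgeR, as were 4796 of 16864 genes). There 3 of 11 mesoderm and posterior markers fell and 1 rose (Hand1, 2.20). Primitive endoderm markers were called higher in 2, 4 and 3 of 12, and lower in 5, 0 and 0 of 12, in POLE4-KO#1, POLE4-KO#2 and POLE4-KO#3. The part of these markers in the Hox levels was not tested.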

How the data were processed

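Strand-specific libraries of rRNA-depleted total RNA were sequenced, and the authors used Trimmomatic 0.39 for trimming and STAR 2.7.1a for alignment to mm10, then deposited 3 tables of raw counts for genes and repeats. The labels of some samples name featureCounts, and whether counting used strand is not given in the sources used here, so members that overlap a neighbour are uncertain. Of the columns 3 matched no sample and were not used, the 3 libraries of WT#5 were not analysed here, and a few further genes, 1 of them in the clusters, are not reported here. Members and lists were chosen with earlier results of these data known.

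Symbols, positions and exon lengths came from GENCODE vM21. Technical runs of a culture were summed, and the libraries of a clone were summed per batch. CPM used TMM factors from gene rows, and edgeR 4.0.16 (R 4.3.3) quasi-likelihood tests followed filterByExpr (min.count 10, min.total.count 15) with Benjamini-Hochberg adjustment over genes. The clone fit had batch as a covariate, and the POLE4 fit had each clone as a group. A gene was called at an adjusted p under 0.01 with a log2 fold change beyond 0.58 in size. SEs were derived as the fold change over the root of the F statistic. Tests were run on simulated data first. Alternatives were DESeq2 1.42.0, other filters and limits, single runs, batches and libraries, a replicate block and leaving out each library or clone.

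Values in every unit (lowest, median and highest in groups over 5) are given for members called in a comparison and for the highest of each cluster per kilobase. Other members that are named were chosen after their values were seen, and listed genes are named where called. Nothing in the labels says that cultures of a line were independent beyond their numbers, so p-values measure the spread between these samples. Replicate numbers were checked for pairing by correlating residuals (log2 CPM, prior count 2): 5 of 12 same-number pairs exceeded 0.1 in the rescue experiment and 114 of 132 in the August clones (0 of 132 others). Not every pair did, and the main fits treat neither as paired. Most August libraries of the same number thus shared part of their deviation, which the tests among August clones did not model. All 9 same-number pairs exceeded 0.1 among POLE4-KO clones (0 of 18 others), but the WT#1 libraries carry other numbers.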

Additional observations from a re-analysis of the deposited data

Results flagged for a closer look

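Of 50 groups of 4 to 10 units examined for the members described sample by sample, 4 held a unit far from the others, and chance gives about 1 in 20. Hoxa13 read 0.548 CPM in MCM2-R#2 culture 3 and 0.217 to 0.243 in the other 3, and 0.900 CPM in MCM2-2A#8 among the MCM2-2A clones. Hoxb9 read 1.99 CPM in WT#1 culture 1 of the rescue experiment, beside 1.45 to 1.49 in the others. Hoxd9 read 1.15 CPM in WT#1 in August among the WT clones, whose median was 0.213.

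The knockout clones differed in their effect against the same WT#1 libraries, by a test of the difference itself, for all 5 tested members: Hoxb9 (edgeR adjusted p = 3.8e-05), Hoxc13 (5.5e-05), Hoxd9 (0.00049), Hoxd8 (0.00054) and Hoxd13 (0.0057). Of all 16864 genes 31.2% differed among these clones, and 5 members are too few to be set apart from that share.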

How the results depend on the processing

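No called member changed direction under any alternative, and the summed Hox levels moved by less than 1 SD with unscaled library sizes. Counts of called members moved as follows. The share of all genes called under each alternative is not given beside them, so these counts show the effect of the setting only. DESeq2 called 2 in MCM2-2A#2 against WT#1, 1 in MCM2-R#2 against MCM2-2A#2 and 5 in the clones. Without the filter on low counts these were 2, 1 and 1, and 1 in POLE4-KO#3 (Hoxb9). At an adjusted p below 0.05 with no fold limit they were 2, 2 and 4, and 4, 3 and 2 in POLE4-KO#1, POLE4-KO#2 and POLE4-KO#3. On the first run alone 0 were called in MCM2-2A#2 against WT#1. Leaving out 1 library or clone gave 0 to 1 in MCM2-2A#2 against WT#1, 0 to 1 in MCM2-R#2 against MCM2-2A#2, 0 to 1 in the clones, 0 to 3 in POLE4-KO#1 and 0 to 1 in POLE4-KO#2. In the clones 0 were called in August alone, and 0 in March alone with single libraries as units. Over all batches 4 were called with single libraries as units, and 0 without WT#1 and MCM2-2A#2, an alternative chosen after seeing the data. Fits on fewer units test with fewer degrees of freedom, and for the rest the cause was not tested. With the replicate number as a block 1 member was called in MCM2-2A#2 against WT#1 (Hoxd13, log2 fold change 1.20). With it 2 were called in the August clones with single libraries as units (Hoxa10 and Hoxa13) and 6 among the POLE4-KO clones. The block changed no other call in the fits that held it. Depth limits what could be tested: 27 members in the rescue experiment and 33 in the POLE4 experiment did not pass the count filter.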
